A study of Mus musculus with 5 samples.

Results

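The genes described here are the splicing factors whose names begin with Srsf, Hnrnp, Sf3a, Sf3b, Snrp or Prpf. The rule used names alone and no measured value, although these families were picked with earlier results of the same data known. They numbered 55 of the 12930 genes in the deposited table: 15 Hnrnp, 13 Prpf, 3 Sf3a, 5 Sf3b, 9 Snrp and 10 Srsf genes. All 55 had a value in every library, so none was lost to a filter at this stage. GENCODE M21 lists 65 protein-coding genes with these name starts, and the other 10 (5 Hnrnp, 1 Sf3b, 3 Snrp and 1 Srsf) are not analysed here.

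The study measured RNA in OG2 mouse embryonic stem cells, a line derived from mice that carry a green fluorescent reporter driven by Pou5f1 control elements. The strain label is (CBA/CaJxC57BL/6J) crossed with 129Sv/Jae female mice. All groups had 24 h in N2B27 medium with LIF and inhibitors, then 50 nM siRNA by lipid transfection on being moved to differentiation medium with 12.5 ng/ml bFGF, 20 ng/ml Activin A and KSR (knockout serum replacement) for 36 h. There were 2 libraries with siRNA against Dhx30 (siDhx30), which encodes an RNA helicase of mitochondrial RNA granules, 2 with siRNA against Tfam (siTfam), which encodes the factor that packages and transcribes mitochondrial DNA, and 1 with a negative control siRNA (NC). The question the design poses is which RNAs differ when either mitochondrial nucleic acid protein is depleted. The labels do not say whether the libraries numbered 1 and 2 were separate cultures, so the p-values reflect the spread among these libraries alone, and that spread may be technical.

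Each deposited value was a log2 ratio between 1 siRNA library and the same NC library. No absolute level, read count or depth was known, and genes with few reads could not be told from abundant ones. The direction of the ratio was inferred. Of the 842 genes with a missing value, 1574 values were present, of which 1574 were negative as deposited and 0 positive. A gene that passes a minimum count in some siRNA libraries and not in others, beside the same control, has to be high in those where it passes. The deposited ratio was therefore read as NC over siRNA and its sign was turned, so that a positive value below means more RNA in the siRNA library than in NC. Every direction below rests on that inference and would be mirrored if the sign were kept.

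The targeted genes were read first, as a check of the labels. In replicates 1 and 2, in that order, Dhx30 stood at -0.40 and -0.20 with siDhx30 (mean -0.30, 95% interval -0.85 to 0.25, adjusted limma p 0.998) and at 0.01 and 0.04 with siTfam. Tfam stood at -0.28 and -0.02 with siTfam (mean -0.15, -0.75 to 0.45, adjusted limma p 0.987) and at 0.12 and -0.01 with siDhx30, so siTfam replicate 2 showed almost no reduction of its target. Values of each library are therefore given beside the siTfam means.

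Pre-mRNA splicing is carried out by the spliceosome, which assembles on each intron from small nuclear ribonucleoproteins (snRNPs) and many free proteins. Sm proteins form a ring on the snRNAs, SF3A and SF3B hold the U2 snRNP at the branch site, and PRPF proteins build, remodel and activate the complex. SR proteins, which carry arginine- and serine-rich domains, mostly bind exons and favour their use, whereas hnRNPs coat nascent RNA and often oppose it. Several genes of both families limit their own mRNA through exons that expose it to nonsense-mediated decay. In embryonic stem cells these factors are broadly expressed and take part in the splicing choices that separate pluripotent from differentiating cells.

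The mouse genome holds processed copies of some of these genes, and reads from such copies cannot be assigned by sequence alone where the letters are the same. Of the 55 genes, 20 had at least 1 copy, defined as a GENCODE M21 transcript of another gene that aligned to the member's coding sequence at 90% identity or more over 50% of its length or more. The sequences below are shown because Hnrnpa3 and Snrpg, the genes with the widest spread over the libraries, were also those whose whole coding sequence is shared with other genes. Hnrnpa3 (chr2:75659261-75669407, plus strand, GRCm38), an hnRNP of the A/B group that binds nascent RNA, had 35 copies, 7 of which had values of their own in the table. Each line gives coding bases 201 to 350, 5′ to 3′ in the direction of the gene, a stretch of 150 bases that is as long as 1 read of a pair. Capitals in Hnrnpa3 mark the 8 positions where at least 1 of those 7 copies differs, and capitals in a copy mark where that copy differs from Hnrnpa3. Not all 7 copies are printed, so some capitals in Hnrnpa3 come from copies that are not shown. Among the stretches compared with all 7 copies, this one was picked for the most differences summed over them.
Hnrnpa3: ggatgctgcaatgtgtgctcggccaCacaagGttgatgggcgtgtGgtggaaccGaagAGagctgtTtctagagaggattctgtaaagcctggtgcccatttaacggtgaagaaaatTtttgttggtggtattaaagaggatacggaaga
Gm5641: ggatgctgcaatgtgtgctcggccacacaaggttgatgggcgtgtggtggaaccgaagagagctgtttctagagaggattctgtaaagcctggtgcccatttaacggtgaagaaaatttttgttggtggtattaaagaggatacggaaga
Gm5940: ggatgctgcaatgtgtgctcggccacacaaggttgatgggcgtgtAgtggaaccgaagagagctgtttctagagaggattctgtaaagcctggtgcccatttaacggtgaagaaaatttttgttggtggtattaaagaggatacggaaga
Gm6254: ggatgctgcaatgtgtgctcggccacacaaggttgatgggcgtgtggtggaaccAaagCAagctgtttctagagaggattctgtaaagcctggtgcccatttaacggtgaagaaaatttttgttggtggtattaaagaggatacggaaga
Gm8991: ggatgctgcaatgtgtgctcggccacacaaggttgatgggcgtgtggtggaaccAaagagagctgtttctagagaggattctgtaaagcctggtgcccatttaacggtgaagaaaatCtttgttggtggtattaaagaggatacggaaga

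Gm5641 (chr3:54481438-54482925, plus strand) is annotated as a transcribed processed pseudogene and matched all 1074 coding bases of Hnrnpa3, so it carries 0 differences in the stretch shown. Gm5940 (chrX:80456742-80457809, plus strand), Gm6254 (chr14:122117938-122119009, plus strand) and Gm8991 (chr5:16729996-16731070, minus strand) are processed pseudogenes with 1, 3 and 2 differences there. Snrpg (chr6:86371304-86379328, plus strand), which encodes the Sm ring protein G, had 5 copies. Its first 150 coding bases are given next to those of Gm8186 (chr17:26098991-26099221, minus strand), a processed pseudogene that matched all 231 coding bases, and no letter is in capitals because 0 differ.
Snrpg: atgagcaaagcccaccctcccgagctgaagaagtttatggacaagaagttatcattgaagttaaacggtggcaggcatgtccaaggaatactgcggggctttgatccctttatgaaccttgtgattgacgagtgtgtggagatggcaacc
Gm8186: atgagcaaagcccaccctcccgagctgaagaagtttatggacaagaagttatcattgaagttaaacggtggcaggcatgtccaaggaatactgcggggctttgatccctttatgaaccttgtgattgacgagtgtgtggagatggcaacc

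As a group, the splicing factor genes stayed close to the NC library in every siRNA library. The median log2 ratio of the 55 genes to NC was -0.05 and 0.01 with siDhx30 replicates 1 and 2, and -0.07 and 0.02 with siTfam replicates 1 and 2. Averaged over replicates, 26 genes were above and 29 below NC in siDhx30 (median -0.01, from -0.49 to 0.54), against a median of -0.01 over all 12088 genes with a value in every library. In siTfam, 24 were above and 31 below (median -0.03, from -0.89 to 0.74), against -0.02 over all genes. Directly compared, siDhx30 exceeded siTfam in 28 genes and was below it in 27 (median 0.0033, from -0.30 to 0.42).

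No splicing factor gene passed the test in any comparison. The test was limma on the ratios with Benjamini-Hochberg adjustment over all 12088 genes at a threshold of 0.05, and the share of all genes that passed it was 0% for siDhx30 over NC, 0% for siTfam over NC and 0% between the siRNA groups. At an unadjusted limma p under 0.05, 0 of the 55 passed in siDhx30 against NC, where 5.04% of all genes did. In siTfam against NC 1 of 55 (1.82%), Snrpd1, passed, where 6.11% of all genes did, and in siDhx30 against siTfam 0 of 55 passed, where 2.79% did. The fit had 2 residual degrees of freedom and the spread of the NC group was borrowed from the others, which limits it to large effects.

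Counts by the size of the ratio in each library gave the same picture. No splicing factor gene was at least 0.25 above NC in both siDhx30 libraries, a mark reached by 11% of all genes, and 5 (9.09%) were at least 0.25 below NC in both, against 12.2% of all genes. Those 5 were Hnrnpdl, Hnrnph3, Prpf38b, Prpf4 and Snrpd1. In siTfam, Snrpd3 and Snrpg (3.64%) were at least 0.25 above NC in both libraries, against 12.1% of all genes. Prpf38b, Sf3b4, Snrpd1 and Srsf4 (7.27%) were at least 0.25 below, against 12.8%. All of these shares lie under the background of all genes, so reaching the mark is not particular to the splicing factors.

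The ratios of these genes also varied less between libraries than those of the median gene. The range over the 4 libraries had a median of 0.22 among the 55 genes, from 0.05 to 1.55, and of 0.46 over all genes. It exceeded 0.5 in 7 of 55 (12.7%) and in 5598 of 12088 genes (46.3%). The range was not taken over protein-coding genes alone. The median absolute ratio was 0.134 with siDhx30 and 0.119 with siTfam, beside 0.196 and 0.207 over all genes. Over the 9257 protein-coding genes it was 0.176 and 0.182, closer to the splicing factors. Over the 143 other splicing genes described further below it was 0.118 and 0.124, so small ratios were not particular to these families. Whether this smaller spread goes with the number of reads per gene was not tested, since depth is unknown. The 95% interval of the log2 ratio lay wholly within 1 of zero, that is within a 2-fold change, for 47 of 55 genes (85.5%) in siDhx30 against NC, 48 (87.3%) in siTfam against NC and 51 (92.7%) in siDhx30 against siTfam. Over all genes these shares were 54.1%, 53.1% and 68.4%, and over protein-coding genes 61.8%, 61.0% and 75.9%. Over the 143 other splicing genes they were 84.6%, 84.6% and 94.4%, much like those of the splicing factor families.

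**Figure D1:**
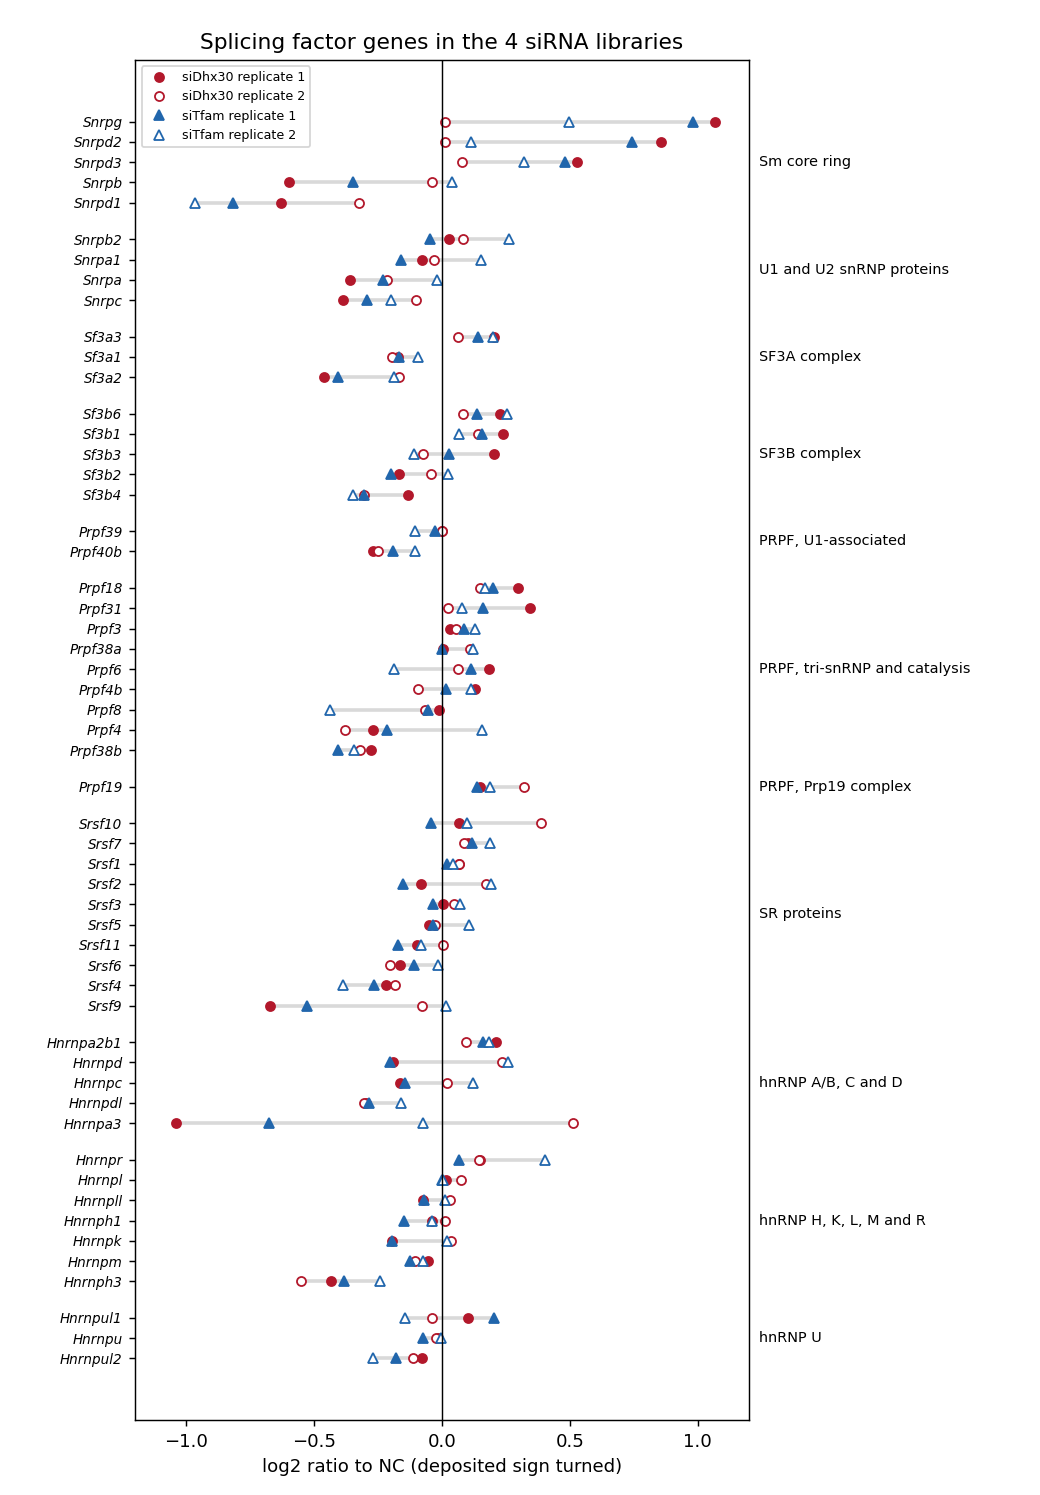
Log2 ratio to NC (x axis) of 54 of the 55 splicing factor genes (y axis, grouped by role) in siDhx30 replicates (circles) and siTfam replicates (triangles), with replicate 1 filled and replicate 2 open and a grey bar over the range of the 4 libraries. Most genes lie near zero with a median range of 0.22, while Hnrnpa3 spans 1.55 and Snrpg 1.06.

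The plot of the 4 libraries by role shows that the Sm ring, present with 5 genes, was the role group with the widest spread, at a median range of 0.64. Snrpd1, which encodes the Sm protein D1, and Prpf38b lay 0.25 or more below NC in all 4 libraries. The 4 ratios share 1 NC library, and the share of all genes at that mark in all 4 was not counted. Snrpd1 stood at -0.63 and -0.33 with siDhx30 replicates 1 and 2 and at -0.82 and -0.97 with siTfam replicates 1 and 2. The siTfam libraries were the lower pair, and the 2 groups did not overlap, an order found in 14.7% of all genes.

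The siTfam mean of Snrpd1 was -0.89 (95% interval -1.53 to -0.26, limma, n = 2 against 1), or 53.8% of NC, with an unadjusted limma p of 0.0174 and an adjusted p of 0.676. Without siTfam replicate 2 the value was -0.82 and the unadjusted limma p 0.063. In siDhx30 the mean was -0.48 (-1.11 to 0.16), or 71.8% of NC, with an adjusted p of 0.998. Set directly against siTfam, siDhx30 was 0.42 higher (-0.10 to 0.93), the largest gap of any of the 55 genes in that comparison, with an unadjusted limma p of 0.09 and an adjusted p of 0.999.

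Snrpg, Snrpd2 and Snrpd3, which encode ring proteins G, D2 and D3, stood above NC in all 4 libraries. Snrpg was at 1.07 and 0.01 with siDhx30 and at 0.98 and 0.50 with siTfam, always given as replicate 1 and then replicate 2. Snrpd2 was at 0.86 and 0.01 with siDhx30 and 0.74 and 0.11 with siTfam, and Snrpd3 at 0.53 and 0.08 and at 0.48 and 0.32. In each of them both libraries numbered 1 lay above both numbered 2, and the siRNA groups overlapped. The means of Snrpg were 0.54 with siDhx30 (-0.97 to 2.05) and 0.74 with siTfam (-0.77 to 2.25), so neither interval left out zero or a 2-fold change.

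Snrpb, which encodes the Sm proteins B and B′, ran the other way with -0.60 and -0.04 with siDhx30 and -0.35 and 0.04 with siTfam. Again the libraries numbered 1 were the ones away from NC. Genes for a single ring thus lay on both sides of NC, and the mean ratios of the ring ran from -0.48 to 0.54 with siDhx30 and from -0.89 to 0.74 with siTfam. Across 9257 protein-coding genes the ratios of siDhx30 replicate 1 and siTfam replicate 1 followed the GC content of the transcript (Spearman rho -0.35 and -0.24 over genes, as a description). Those of the replicates numbered 2 did so less (-0.08 and -0.06). For transcript length rho was 0.18 and 0.03 with siDhx30 replicates 1 and 2, and 0.05 and -0.20 with siTfam replicates 1 and 2. With length and GC trends removed Snrpd1 was at -1.07 with siTfam, Snrpg at 0.61 and Snrpd2 at 0.41. Values of Snrpb and Snrpd3 under that removal are not given here, nor is that of Snrpd1 with siDhx30.

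**Figure D2:**
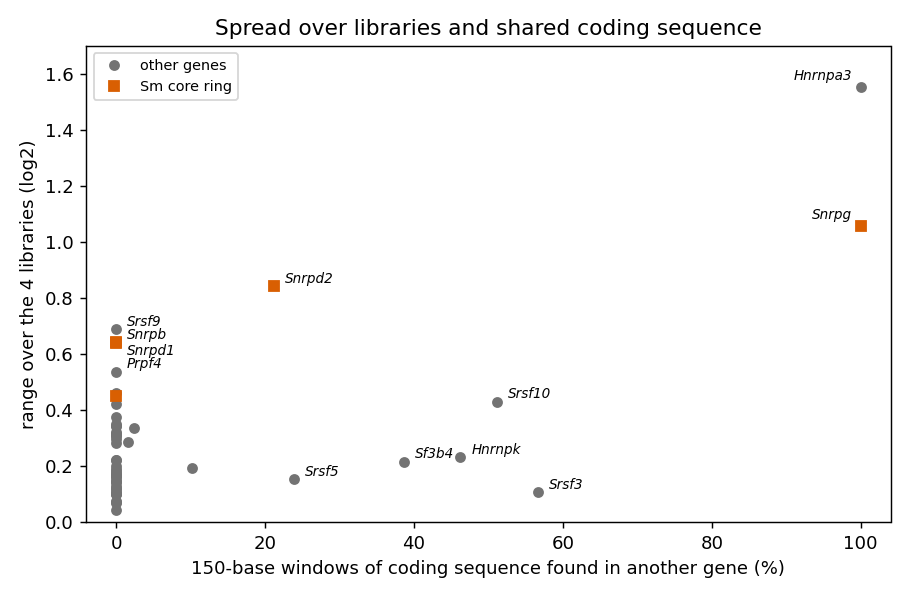
Range of the log2 ratio over the 4 libraries (y axis) against the share of 150-base windows of a gene's coding sequence found letter for letter in a transcript of another gene (x axis, %), 1 point for each of the same 54 genes, with the 5 Sm ring genes as squares. Hnrnpa3 and Snrpg, at 100%, have the widest ranges, while Srsf3 at 56.6% has a range of 0.11.

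The plot of range against shared sequence takes up the copies printed above. In Hnrnpa3, 925 of 925 windows of 150 coding bases, and in Snrpg 82 of 82, occur in another gene's transcript, and these were the only genes of the 55 at 100%. They were also those with the widest ranges, 1.55 and 1.06. Hnrnpa3 was at -1.04 and 0.51 with siDhx30 and at -0.68 and -0.07 with siTfam, so the siDhx30 replicates lay on opposite sides of NC and enclosed both siTfam libraries. Its means, -0.26 with siDhx30 (-2.36 to 1.84) and -0.37 with siTfam (-2.48 to 1.73), are the least precise of all 55.

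Shared sequence did not go with a wide range in every gene. Srsf3, an SR protein gene that also serves mRNA export, shared 56.6% of its windows and Srsf10, an SR-like splicing regulator gene, 51.1%, with ranges of 0.11 and 0.43. Hnrnpk, whose product binds C-rich RNA, shared 46.2%, and Sf3b4, a subunit gene of SF3B, 38.6%, with ranges of 0.23 and 0.22. The 11 genes with any shared window had a median range of 0.29 and the 44 without one a median of 0.20. Of the other Sm genes, Snrpd2 shared 21.2%, whereas Snrpd1, Snrpd3 and Snrpb shared 0%, with ranges of 0.64, 0.45 and 0.64. The 5 of the 55 genes with fewer than 400 coding bases, which are Sf3b6 and all the Sm genes but Snrpb, had a median range of 0.64, although Sf3b6 itself had 0.17.

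**Figure D3:**
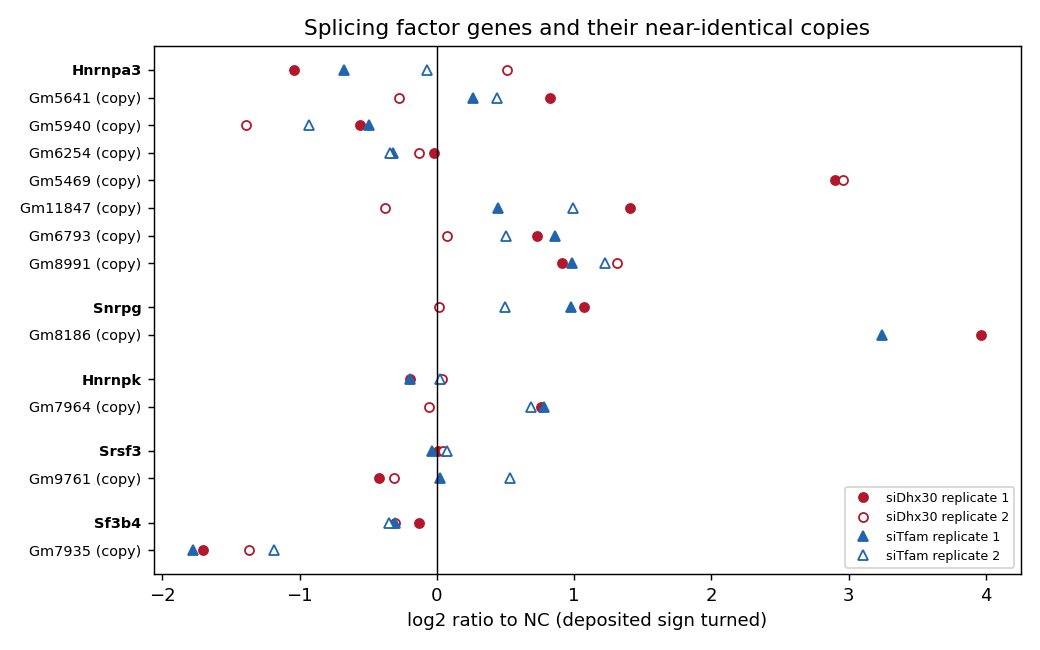
Log2 ratio to NC (x axis) of 5 splicing factor genes (bold) and of the copies of each with values in the table (y axis), 1 symbol per library as in the legend. Gm5641, identical to Hnrnpa3 over its coding bases, is highest in siDhx30 replicate 1, where Hnrnpa3 is lowest, at 0.82 against -1.04. In siTfam both are higher in replicate 2 than in replicate 1.

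The plot of the copies gives the ratios of 11 copies with values, 7 of Hnrnpa3 and 1 each of Snrpg, Hnrnpk, Srsf3 and Sf3b4. Gm5641 stood at 0.82 and -0.28 with siDhx30 and at 0.26 and 0.44 with siTfam. In siDhx30 it lay above NC in the library where Hnrnpa3 was below, and the reverse in the other. This opposite order held in siDhx30 only, since in siTfam Gm5641 and Hnrnpa3 were both higher in replicate 2. Gm11847, another Hnrnpa3 copy, had the same order of libraries as Gm5641, at 1.41 and -0.38 with siDhx30 and 0.44 and 0.99 with siTfam.

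Not all copies followed that order. Gm6793, with a protein-coding annotation, was above NC in all libraries at 0.73 and 0.07 with siDhx30 and 0.86 and 0.51 with siTfam. Gm5940, with 99.9% identity to Hnrnpa3, was below NC throughout at -0.56 and -1.39 with siDhx30 and -0.49 and -0.93 with siTfam. Gm6254 was near or below NC at -0.02 and -0.13 with siDhx30 and -0.32 and -0.34 with siTfam, and Gm8991 was above it at 0.91 and 1.31 and at 0.98 and 1.22. Gm5469 was at 2.90 and 2.96 with siDhx30 and had no value in siTfam. The copy of Snrpg, Gm8186, had values only in the libraries numbered 1, 3.97 with siDhx30 and 3.24 with siTfam. As set out above, a gene with missing values has to be high where it has a value. The heights of Gm5469 and Gm8186 are therefore not compared with those of Hnrnpa3 and Snrpg. The copy of Hnrnpk, Gm7964, was at 0.76 and -0.06 with siDhx30 and 0.78 and 0.69 with siTfam, and that of Srsf3, Gm9761, at -0.42 and -0.31 and at 0.02 and 0.53. The treatment of reads that fit several places is not given in the sources used here. The values of a gene and its identical copy are therefore uncertain, and the part of such reads in the spread of Hnrnpa3 and Snrpg was not tested. Only coding bases were compared, 1074 of the 5150 bases of the Hnrnpa3 transcript used and 231 of the 1055 of Snrpg. Whether reads from the untranslated parts, or read pairs, could be told apart was not tested.

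Among the proteins particular to the U1 and U2 snRNPs, 4 genes were measured and the values were small. Snrpc and Snrpa, both coding for U1 proteins, were below NC in every library. Snrpc was at -0.39 and -0.10 with siDhx30 and -0.29 and -0.20 with siTfam, and Snrpa at -0.36 and -0.21 and at -0.23 and -0.02. The U2 protein genes Snrpa1 and Snrpb2 lay between -0.16 and 0.26 in all 4 libraries, with means between -0.05 and 0.11.

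The 3 SF3A genes, whose products join the U2 snRNP to the branch site, did not share a direction. Sf3a2 was the lowest, at -0.46 and -0.17 with siDhx30 and -0.41 and -0.19 with siTfam, with means of -0.32 (-0.97 to 0.34) and -0.30 (-0.96 to 0.36). The libraries numbered 1 were again the lower ones, and with length and GC trends removed the means were -0.09 and -0.07. Sf3a1 was below NC at -0.17 and -0.20 and at -0.17 and -0.09, and Sf3a3 was above it in every library at 0.20 and 0.06 with siDhx30 and 0.14 and 0.20 with siTfam. Family medians were -0.18 with siDhx30 and -0.13 with siTfam.

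The 5 SF3B genes had library medians of 0.21 and -0.04 with siDhx30 and 0.03 and 0.02 with siTfam, and the medians of their means were 0.06 and -0.04, so no direction held across libraries and means. Sf3b4 lay below NC in all libraries, at -0.13 and -0.31 with siDhx30 and -0.30 and -0.35 with siTfam, with a siTfam mean of -0.33 (-0.86 to 0.21). Its copy Gm7935, at 99.3% identity, was lower still at -1.70 and -1.37 and at -1.77 and -1.19. Sf3b1, which encodes the large subunit that clamps the branch site, was at 0.24 and 0.14 with siDhx30 and 0.16 and 0.07 with siTfam, all above NC. Sf3b6, coding for the small subunit next to the branch-site adenosine, was also above in each, at 0.23 and 0.08 and at 0.14 and 0.25. Sf3b3, another large SF3B subunit gene, was at 0.21 and -0.08 with siDhx30 and 0.03 and -0.11 with siTfam, and Sf3b2 lay between -0.20 and 0.02.

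The 13 Prpf genes split by position in the splicing cycle showed no common direction. Among those associated with the U1 snRNP, Prpf40b was below NC in all libraries, at -0.27 and -0.25 with siDhx30 and -0.19 and -0.10 with siTfam. Prpf39 lay close to NC, between -0.11 and 0.0019. Of the 9 that serve the tri-snRNP or later steps, Prpf38b (chr3:108902805-108911727, minus strand), a relative of the Prp38 protein that acts as the spliceosome is activated, was below NC throughout at -0.28 and -0.32 with siDhx30 and -0.41 and -0.34 with siTfam. Its values were closely grouped, with means of -0.30 (-0.80 to 0.20) and -0.38 (-0.87 to 0.12) and adjusted limma p of 0.998 and 0.913.

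Prpf4 (chr4:62408797-62426990, plus strand), a protein gene of the U4/U6 snRNP, was at least 0.25 below NC in both siDhx30 libraries and on opposite sides of NC in siTfam. It was at -0.27 and -0.38 with siDhx30 and at -0.22 and 0.16 with siTfam, a direct difference of -0.30 (-0.85 to 0.26, adjusted limma p 0.999). Without siTfam replicate 2 that difference was -0.11, so its size rests on that library. Its partner Prpf3 was near NC in all libraries, from 0.03 to 0.13, and Prpf31, which binds the same snRNP, was above at 0.35 and 0.02 with siDhx30 and 0.16 and 0.08 with siTfam. Prpf18, a factor of the second catalytic step, was above NC throughout, at 0.30 and 0.15 and at 0.20 and 0.17.

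Prpf8, the scaffold of the catalytic core, was near NC in 3 libraries (-0.01, -0.07 and -0.05) and at -0.44 with siTfam replicate 2. Prpf6, which bridges the U5 and U4/U6 snRNPs, was at 0.19 and 0.06 with siDhx30 and at 0.11 and -0.19 with siTfam, with siTfam replicate 2 again the lowest. Prpf4b, a kinase gene, and Prpf38a stayed between -0.09 and 0.13. Prpf19, which encodes the ubiquitin ligase of the Prp19 complex, was above NC in all libraries at 0.15 and 0.32 with siDhx30 and 0.14 and 0.19 with siTfam, with means of 0.24 (-0.30 to 0.77) and 0.16 (-0.37 to 0.69).

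The 10 SR protein genes had medians of -0.0065 with siDhx30 and 0.02 with siTfam. By library the medians were -0.07 and 0.03 with siDhx30 and -0.08 and 0.06 with siTfam, with 4 and 6, and then 2 and 7, of 10 genes above NC, so their side of NC turned with the replicate. Srsf1, the founding splicing activator of the family, had the narrowest range of all 55 genes, with values of 0.07 and 0.07 with siDhx30 and 0.02 and 0.04 with siTfam. Its means were 0.07 (-0.42 to 0.56) and 0.03 (-0.46 to 0.52), intervals that lie within a 2-fold change. Srsf3 was as close to NC, from -0.04 to 0.07, and Srsf7, its near relative in the family, was slightly above throughout, at 0.10 and 0.08 and at 0.12 and 0.19.

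Srsf4 and Srsf6, related SR proteins with long arginine- and serine-rich tails, were both below NC in every library. Srsf4 was at -0.22 and -0.18 with siDhx30 and -0.27 and -0.39 with siTfam, and Srsf6 at -0.16 and -0.20 and at -0.11 and -0.01. Their order between the siRNA groups was opposite, with siTfam the lower group for Srsf4 and siDhx30 for Srsf6, in both cases without overlap. These orders were found in 14.7% and 14.3% of all genes. The direct differences were 0.12 (-0.29 to 0.54) and -0.12 (-0.53 to 0.29), and neither passed the limma test at an adjusted p of 0.999.

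Srsf9 (chr5:115327177-115333080, plus strand) had the widest range of the SR genes, 0.69, at -0.67 and -0.08 with siDhx30 and -0.53 and 0.02 with siTfam. Both low values were in the libraries numbered 1, and without siTfam replicate 1 its siTfam value was 0.02, on the other side of NC. Srsf2, which binds exonic enhancers, followed a similar order in smaller steps, at -0.08 and 0.17 with siDhx30 and -0.15 and 0.19 with siTfam. Srsf10 was highest in siDhx30 replicate 2, at 0.39, beside 0.07, -0.04 and 0.10 in the others. Srsf5 and Srsf11 stayed between -0.17 and 0.10.

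The 15 Hnrnp genes had medians of -0.02 with siDhx30 and -0.04 with siTfam, with 5 of 15 above NC in each (33.3%), beside 48.1% and 47.3% of all genes. By library 4 and 9 of 15 were above NC with siDhx30 (medians -0.07 and 0.02) and 3 and 7 with siTfam (-0.15 and -0.0058), so the siDhx30 count turned with the replicate. Hnrnph3 (chr10:63014664-63024217, minus strand), of the group that binds G-rich RNA, was below NC in all 4 libraries, at -0.44 and -0.55 with siDhx30 and -0.38 and -0.24 with siTfam. The siDhx30 libraries were the lower pair without overlap, an order found in 14.3% of all genes. Its siDhx30 mean of -0.49 (-1.03 to 0.04) was the lowest of the 55 and had the smallest unadjusted limma p of them, 0.0624, with an adjusted p of 0.998. With length and GC trends removed the mean was -0.53 and the unadjusted limma p 0.0313 (adjusted p 0.878). Its relative Hnrnph1 stayed between -0.15 and 0.01.

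Hnrnpdl and Hnrnpd, paralogous RNA-binding proteins of which Hnrnpd is known for binding AU-rich mRNAs, differed in pattern. Hnrnpdl was below NC at -0.30 and -0.30 with siDhx30 and -0.29 and -0.16 with siTfam. Hnrnpd followed the replicate number instead, at -0.19 and 0.23 with siDhx30 and -0.20 and 0.26 with siTfam, so that its means were 0.02 and 0.03. Hnrnpc, which binds uridine tracts, and Hnrnpk were also below NC in the libraries numbered 1 and above it in those numbered 2, within -0.20 and 0.12.

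Hnrnpa2b1, the partner of Hnrnpa3 in the A/B group, was above NC in all libraries at 0.21 and 0.09 with siDhx30 and 0.16 and 0.18 with siTfam. Hnrnpr, an RNA-binding protein gene of the same broad family, was above at 0.15 and 0.15 and at 0.07 and 0.40. Hnrnpl, which binds CA repeats, Hnrnpm and the nuclear scaffold gene Hnrnpu had ranges of 0.07 each, and all of their values lay between -0.13 and 0.07. Hnrnpll, a relative of Hnrnpl, lay between -0.07 and 0.03. Of the Hnrnpu relatives, Hnrnpul2 was below NC throughout, at -0.08 and -0.11 and at -0.18 and -0.27, and Hnrnpul1 was on both sides, between -0.14 and 0.21.

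**Figure D4:**
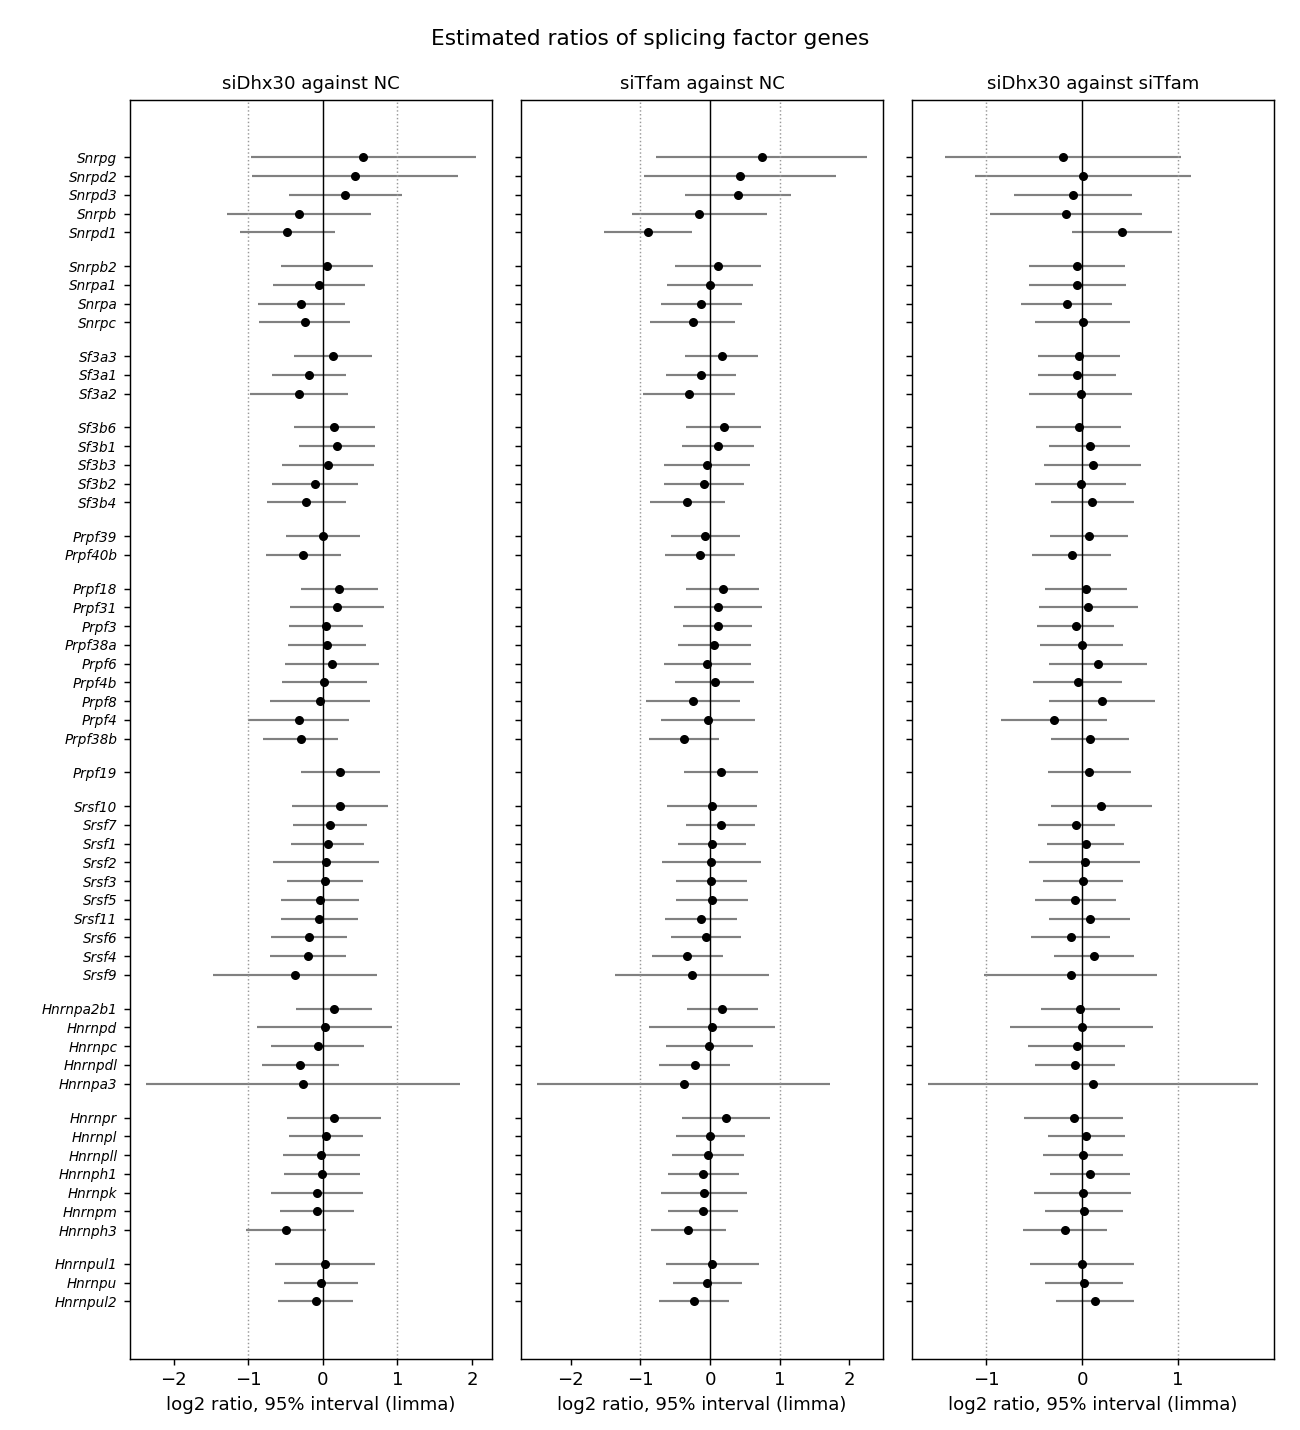
Mean log2 ratio (points) with its 95% limma interval (lines) for the same 54 genes (y axis, in the order of the plot by library) in the 3 comparisons named above the panels (x axes, log2; dotted lines at a 2-fold change). Snrpd1 with siTfam, at -0.89, is the only estimate whose interval leaves out zero.

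The plot of the estimates puts the 3 comparisons side by side. The comparisons with NC share that library, so their values are given next to each other and not as support for one another. Between the siRNA groups, which share no library, both siDhx30 libraries exceeded both siTfam libraries in 8 of 55 genes (14.5%), against 14.7% of all genes, and lay below both in 8 (14.5%), against 14.3%. These shares are those of all genes. The first 8 were Hnrnph1, Hnrnpl, Hnrnpul2, Prpf38b, Prpf39, Snrpd1, Srsf1 and Srsf4, and the other 8 were Hnrnpdl, Hnrnph3, Prpf3, Prpf4, Prpf40b, Sf3a1, Srsf6 and Srsf7. Only Snrpd1 and Prpf4 among these 16 had a direct difference of 0.25 or more in size.

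The other genes of the splicing pathway, 143 of them in 7 lists by function, gave no gene past an adjusted limma p of 0.05 in any comparison. At an unadjusted p under 0.05 there was 1, Mbnl1 with siTfam, and 0 with siDhx30 and in the direct comparison. Mbnl1, a regulator that opposes embryonic stem cell splicing patterns, was at -0.39 and -0.73 with siDhx30 and -0.72 and -1.02 with siTfam, with a siTfam mean of -0.87 (-1.60 to -0.13, unadjusted limma p 0.0308, adjusted p 0.730). Its relative Mbnl3 was above NC at 0.52 and 0.21 and at 0.44 and 0.34. The list of 41 alternative splicing regulators that holds both had medians of -0.0042 with siDhx30 and -0.07 with siTfam. By library 22 and 17 of 41 were above NC with siDhx30 and 18 and 15 with siTfam. Taf15, an RNA-binding protein gene, was above NC in all libraries, at 0.69 and 0.37 with siDhx30 and 0.55 and 0.19 with siTfam.

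Among partners of these proteins, the 20 U1 and U2 partners and 3′ splice site factors had medians of -0.04 with siDhx30 and -0.05 with siTfam, with 9 and 5 of 20 above NC in the siDhx30 libraries and 7 and 9 in the siTfam libraries. Rbm10, a regulator of 3′ splice site choice, was at -0.28 and -0.16 and at -0.30 and -0.22. Among 25 tri-snRNP, Lsm ring and minor spliceosome genes the medians were -0.08 and -0.0049, and the median absolute ratio with siDhx30 was 0.182, above the 0.134 of the splicing factor families. That was the highest of the lists with siDhx30, and the U1 and U2 partner list had the lowest, 0.073. With siTfam the tri-snRNP list and the splicing factor families both had 0.119. Lsm4, an Lsm ring gene, was at -0.58 and -0.39 with siDhx30 and -0.59 and -0.29 with siTfam. The 24 genes of the Prp19 complex and catalytic stage had medians of -0.02 and 0.07, with Ppie, a peptidyl-prolyl isomerase gene, above NC at 0.38 and 0.39 and at 0.25 and 0.41. Between the siRNA groups 28 of 41 regulators (68.3%) were higher with siDhx30, beside 49.8% of all genes, and 31 and 27 of 41 were in the libraries numbered 1 and 2. The tri-snRNP list had 6 of 25 and the catalytic-stage list 9 of 24 higher with siDhx30, but by number these were 12 and 5 of 25 and 17 and 8 of 24, so the catalytic-stage list turned with the replicate.

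The enzymes and pathways that act on these proteins gave small values as well. The 8 SR protein kinase and import genes had medians of 0.12 with siDhx30 and 0.16 with siTfam, with 5 of 8 above NC in each. The CLK kinases, which phosphorylate SR proteins, did not share a direction. Clk2 was below NC in all 4 libraries, at -0.33 and -0.13 with siDhx30 and -0.18 and -0.07 with siTfam. Clk1, Clk3 and Clk4 were above NC in all 4 libraries. Clk1 was at 0.20 and 0.15 and at 0.20 and 0.31, and Clk4 at 0.31 and 0.26 and at 0.33 and 0.18. Clk3 was at 0.01 and 0.25 with siDhx30 and at 0.09 and 0.43 with siTfam. The 14 genes of the exon junction complex and nonsense-mediated decay had medians of -0.05 and -0.16, with 9 and 10 of 14 below NC. Rbm8a, a core junction complex gene, was at -0.46 and -0.51 with siDhx30 and -0.43 and -0.21 with siTfam. The 11 snRNP assembly genes had medians of 0.04 and 0.08, with the means of 7 and 8 of 11 above NC. By library 7 and 5 were above with siDhx30 and 6 and 7 with siTfam. Prmt5, which methylates Sm proteins, was on the other side, below NC at -0.07 and -0.31 and at -0.26 and -0.27.

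Markers of the cells in the culture could be read only as ratios. Of 14 embryonic stem cell markers 3 had values, Esrrb, Dnmt3b and Otx2, and they did not share a direction. Otx2 was above NC throughout, at 0.37 and 0.33 and at 0.63 and 0.43. Esrrb was at 0.06 and 0.02 with siDhx30 and at 0.85 and 0.02 with siTfam. Dnmt3b was at -0.06 and 0.16 with siDhx30 and below NC with siTfam, at -0.13 and -0.12. The others, Pou5f1, Sox2 and Nanog among them, are not analysed here, so the labelled cell type could not be checked by level. Of 10 fibroblast or feeder markers 3 had values, in opposite directions. Thy1 was at 0.63 and 0.75 with siDhx30 and 0.79 and -0.15 with siTfam, Col1a2 at -0.87 and -0.62 and at -0.73 and 0.08, and Dcn at -0.23 and -0.07 and at -0.67 and -0.38. Of 10 primitive endoderm markers 5 had values in every library, with library medians of -0.19 and -0.02 with siDhx30 and -0.44 and -0.96 with siTfam, and all 5 were below NC in both siTfam libraries. Gata6 had a value in siDhx30 replicate 2 alone, 1.58, and a gene with missing values has to be high where it has a value. Their part in the values of Snrpd1 and of the other splicing genes was not tested, and fewer cells of a type and less RNA per cell cannot be told apart in such bulk RNA.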

How the data were processed

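RNA-seq libraries were made from DNase-treated, fragmented total RNA with template-switching cDNA synthesis and sequenced as pairs of 150-base reads, per the labels' protocols. The build GRCm38 and the tools bcl2fastq, HISAT2, featureCounts and DESeq2 (3.14) come from the submitters' processing notes. Settings, strand use, the annotation and reads that map to several places are not stated there. The authors deposited 1 log2 ratio per gene and siRNA library, per the file headers. The headers do not name the numerator, and NC over siRNA was inferred from the missing values. These are not counts, so no count test, pseudocount or filter on low values could be applied, and depth is unknown. Of 12930 names, 12660 and all 55 members matched GENCODE M21.

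The name families and gene lists were chosen with earlier results of these data known. limma (3.58.1, R 4.3.3) was fitted to 12088 genes with a value in all 4 libraries, with the sign turned, NC entered as zeros, 1 coefficient per group, 2 residual degrees of freedom and robust variance moderation without an abundance trend (median prior degrees of freedom 2.02). NC was thus assumed to vary like the siRNA libraries. Benjamini-Hochberg adjustment was over all 12088 genes. The test was also tried on simulated data. The rule for named genes covered the 8 highest and 8 lowest members of each comparison, members with an unadjusted p under 0.05, the extremes of each family, and 2 genes with the smallest p per list and comparison. Of the list genes under it only some are printed, picked with their values in view, and the remaining members are given by range or with values. For 1 member, counted in the totals, single values are not reported here. Copies were found with BLAST 2.17.0. Python 3.11.15, pandas 2.3.3, numpy 2.4.6 and matplotlib 3.10.9 were used. Alternatives left out each library, centred libraries, removed length and GC trends, kept genes with missing values, used protein-coding genes only, robust=FALSE or a replicate block, and, chosen after seeing the data, left out members with a copy or both libraries numbered 1.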

Additional observations from a re-analysis of the deposited data

How the results depend on the processing

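No member passed an adjusted limma p of 0.05 under any alternative run. Of the counts and medians recomputed, 252 values stayed within 1.5 times or within the spread and 42 moved. Over all 55 members and the alternatives tested by limma, 17 in siDhx30 against NC, 21 in siTfam against NC and 34 between the siRNA groups changed direction under at least 1, with ratios of up to 0.26, 0.26 and 0.20 in size; 7, 7 and 15 did so with length and GC trends removed. The causes were not tested.

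With length and GC trends removed, the siDhx30 median of the members was -0.065 and 1 member, Hnrnph3, had an unadjusted limma p under 0.05 (0.0313), as it did with protein-coding genes only (1 member, 0.0469). Under that removal the medians in siDhx30 were -0.055 (Prpf) and -0.088 (Sf3a), in siTfam -0.071 (Sf3a) and 0.0039 (Sf3b), and between the siRNA groups -0.014 (Hnrnp), -0.011 (Prpf) and 0.022 (Sf3b), with Sf3b6 at 0.022 and U2surp at -0.014. Without members that have a copy they were 0.0019 for Prpf in siDhx30 and, for Sf3b, 0.034 in siTfam and 0.030 between the groups. With each library centred, Sf3a in siDhx30 was at -0.17 and Sf3b in siTfam at -0.032. Without both libraries numbered 1, where no test is possible, siDhx30 Sf3a was at -0.17, siTfam Prpf at 0.078 and Sf3b at 0.022, and the direct medians were -0.016 (Hnrnp), -0.015 (Prpf) and 0.035 (Sf3b).

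Leaving out each siRNA library in turn, which leaves a group of 1 that is assumed to vary like the others, gave medians in siDhx30 of 0.0023 to 0.023 (Prpf) and -0.18 to -0.17 (Sf3a). In siTfam the count of members with an unadjusted p under 0.05 was 0 to 1, the medians were -0.15 to -0.0058 (Hnrnp), -0.030 to 0.078 (Prpf), -0.043 to 0.026 (Sf3b) and -0.076 to 0.057 (Srsf), and Srsf9 ran from -0.53 to 0.015. Between the siRNA groups the medians were -0.043 to 0.055 (Hnrnp), 0.024 to 0.066 (Prpf), 0.019 to 0.13 (Sf3b) and -0.070 to 0.082 (Srsf). Single genes there ran from -0.66 to 0.89 (Hnrnpa3), -0.17 to 0.13 (Sf3a2), -0.033 to 0.25 (Sf3b3), -0.11 to 0.034 (Sf3b6), -0.45 to 0.12 (Snrpb), -0.73 to 0.33 (Snrpg), -0.42 to 0.18 (Srsf9), -0.20 to 0.0011 (Clk2) and -0.30 to 0.037 (Clk3).

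The labels do not say that a number marks a shared culture or day. With the replicate block, possible only between the siRNA groups, 0 genes passed the adjusted limma p, 566 of all genes and 0 members passed an unadjusted p of 0.05, and the member median was 0.0033. The gaps between replicates 1 and 2 in siDhx30 and in siTfam had a Pearson r of 0.25 over all genes and 0.75 over the members, across genes that share these libraries. Spearman rho was 0.30 and 0.64, and the gaps had the same sign in 63.2% of all genes and 69.1% of the members. Depth is unknown, and with ratios alone it limits every value by an amount that cannot be given.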
